A study of Mus musculus with 4 samples.

Results

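The subject here is a single pair of arrays out of the 4 in the series: keratinocytes with CreER and keratinocytes without it, both given 4-hydroxytamoxifen (4OHT). The members are the CKO 4OHT array and the control 4OHT array, chosen by their labels, which makes 2 of 4 samples. Each value below is the log2 intensity of CKO 4OHT minus that of control 4OHT unless stated otherwise. The other 2 arrays, of the same genotypes given the solvent ethanol (EtOH), served as a yardstick.

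All cells were primary keratinocytes from the tail skin of C57BL/6 mice with a floxed Prdm1 gene, so the floxed gene was present on both sides of the comparison. The CKO cells came from mice that also expressed CreER, a Cre recombinase that enters the nucleus when 4OHT binds it, and the control cells from mice without it. Both cultures of the pair received 4OHT from day 1 to day 3 and were collected on day 5, and the yardstick cultures received EtOH on the same days. Serum-free medium and plates coated with rat collagen I were used for all 4. The promoter that drives CreER, the exons that are floxed, the ages of the mice and the number of mice per culture are not known from the labels. The genotypes were taken from separate mice, so animal and genotype cannot be told apart. Each group had 1 array, so nothing could be tested, no value has an error, and a difference describes these 2 cultures.

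Prdm1 encodes Blimp-1, a zinc finger repressor that silences its target genes together with corepressor proteins. In skin it is known from the granular layer, the last living layer of the epidermis, and from sebaceous gland cells. Keratinocytes leave the basal layer, stop dividing, switch from Krt5 and Krt14 to Krt1 and Krt10, and then fill a cornified envelope with small proteins that transglutaminases crosslink. Injured or stressed keratinocytes use another set of genes: growth factors of the EGF family, AP-1 transcription factors and chemokines that call in neutrophils.

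Each level is a linear RMA intensity, and a gene counted as measured when it reached the median of the table, 20.04 intensity units, on any of the 4 arrays. This held for 7461 of 12393 named genes. A gene is called higher or lower when the arrays differed by at least 2-fold, a log2 difference of at least 1. The medians of the 4 arrays lay between 19.95 and 20.22. Keratinocyte markers were bright: the 10 in the list summed to 16568 in control 4OHT and 16028 in CKO 4OHT. Krt14 was at 6663 and 6437. Of 12 fibroblast markers only Dcn was measured, at 21.6 to 26.1 on the 4 arrays. Of 8 endothelial markers none was measured. Of 15 leukocyte markers 3 were measured, among them Cd68 at 98.2 to 198, and the pan-leukocyte gene Ptprc was at 3.90 to 4.73. Of 10 melanocyte markers 6 were measured, among them Gpnmb at 87.6 to 112 and Sox10 at 27.7 to 32.6. Eif2s3y, on the Y chromosome, was at 86.1 to 93.9 on the 4 arrays, and Xist at 11.3 to 15.4.

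The targeted gene was lower in the array labelled CKO 4OHT. Prdm1 was at 52.4 in control 4OHT and 6.43 in CKO 4OHT, 8.16-fold lower, and at 20.7 and 16.96 in control EtOH and CKO EtOH. The CKO 4OHT value was below both EtOH arrays and the control 4OHT value above both. Whether the probe set lies inside the floxed part is not known here, so it need not report the deletion itself. Esr1, the gene whose ligand-binding domain is part of CreER, was at 18.2 in control 4OHT and 44.4 in CKO 4OHT, and at 11.3 and 54.3 in control EtOH and CKO EtOH. It was the only gene past 2-fold in the same direction in both pairs.

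The promoters of 8 genes of this comparison are printed. Of these, 6 were chosen because they hold a match to a motif searched: the chemokines Cxcl1 and Cxcl2, the AP-1 subunit Fos and the receptor Procr among the higher genes, and the envelope gene Rptn and Prdm1 itself among the lower ones. Dusp6, of the ERK genes, and Lce1d, of the envelope family with the lowest differences, stand beside them as windows with no match. Each line gives the 250 bases before the gene's start from RefSeq (GRCm38.p6), 5′ to 3′ on the gene's strand, with motif matches in capitals.

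Cxcl1 (chr5:90890995-90891244, + strand): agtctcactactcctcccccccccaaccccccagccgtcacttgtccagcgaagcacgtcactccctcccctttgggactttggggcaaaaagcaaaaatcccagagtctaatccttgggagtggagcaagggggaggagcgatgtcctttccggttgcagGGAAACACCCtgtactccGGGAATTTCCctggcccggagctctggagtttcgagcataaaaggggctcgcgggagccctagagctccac

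Cxcl2 (chr5:90903649-90903898, + strand): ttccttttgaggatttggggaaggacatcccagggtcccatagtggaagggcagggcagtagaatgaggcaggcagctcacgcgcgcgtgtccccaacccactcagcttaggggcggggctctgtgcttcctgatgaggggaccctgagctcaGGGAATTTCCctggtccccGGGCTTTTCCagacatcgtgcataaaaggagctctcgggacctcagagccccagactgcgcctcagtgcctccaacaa

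Fos (chr12:85473640-85473889, + strand): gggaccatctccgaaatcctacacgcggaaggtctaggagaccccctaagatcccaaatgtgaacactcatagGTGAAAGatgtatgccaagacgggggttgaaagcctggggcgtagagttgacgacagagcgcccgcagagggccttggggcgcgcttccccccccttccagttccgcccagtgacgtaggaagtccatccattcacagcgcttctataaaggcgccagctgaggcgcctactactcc

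Procr (chr2:155750967-155751216, + strand): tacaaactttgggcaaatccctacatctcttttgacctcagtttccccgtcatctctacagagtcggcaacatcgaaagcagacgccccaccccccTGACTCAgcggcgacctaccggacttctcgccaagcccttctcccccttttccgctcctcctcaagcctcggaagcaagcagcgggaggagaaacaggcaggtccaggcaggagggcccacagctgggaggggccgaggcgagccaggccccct

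Rptn (chr3:93393449-93393698, + strand): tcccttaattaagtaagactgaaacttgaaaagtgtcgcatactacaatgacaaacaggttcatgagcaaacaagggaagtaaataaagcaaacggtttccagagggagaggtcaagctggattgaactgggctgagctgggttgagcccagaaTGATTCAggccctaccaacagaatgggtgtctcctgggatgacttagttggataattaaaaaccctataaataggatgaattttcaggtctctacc

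Prdm1 (chr10:44458749-44458998, - strand): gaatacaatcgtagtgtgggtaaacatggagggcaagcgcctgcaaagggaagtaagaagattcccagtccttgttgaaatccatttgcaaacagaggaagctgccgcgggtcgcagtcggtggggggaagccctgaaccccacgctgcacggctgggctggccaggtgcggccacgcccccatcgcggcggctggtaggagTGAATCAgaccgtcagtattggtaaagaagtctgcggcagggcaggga

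Dusp6 (chr10:99262981-99263230, + strand): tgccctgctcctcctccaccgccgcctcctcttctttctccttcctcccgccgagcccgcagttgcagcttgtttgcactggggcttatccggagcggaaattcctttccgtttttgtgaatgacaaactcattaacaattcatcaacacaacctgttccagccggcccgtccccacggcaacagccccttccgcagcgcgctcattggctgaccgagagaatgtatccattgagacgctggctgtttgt

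Lce1d (chr3:92687211-92687460, - strand): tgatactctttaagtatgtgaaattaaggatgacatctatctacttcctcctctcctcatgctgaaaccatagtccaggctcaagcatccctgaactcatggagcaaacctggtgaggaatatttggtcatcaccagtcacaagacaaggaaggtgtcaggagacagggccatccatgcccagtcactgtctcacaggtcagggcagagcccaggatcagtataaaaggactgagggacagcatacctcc

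In the Cxcl1 and Cxcl2 windows the capitals mark the NF-kB site, 2 matches in each. In the Fos window they mark the Blimp-1 core GTGAAAG, and in the Procr, Rptn and Prdm1 windows the AP-1 site TGANTCA. The motifs were searched on both strands, N stands for any base, and none of these motifs contains another. Of the 30 highest genes 18 had a window in the table, and of the 30 lowest 26 did. The AP-1 site was in a window of 4 of those 18 genes and 5 of those 26, against 5.63% of 6096 measured genes and 7.82% of all 27025 genes in the table. Of the 4, Cgref1, Ifi209 and Prom1 met the level filter only in CKO 4OHT, where they were high. The NF-kB site was in a window of 2 of the 18 (Cxcl1 and Cxcl2) and 0 of the 26, against 1.87% of measured genes and 1.65% of all. The Blimp-1 core was in a window of 1 of the 18 (Fos) and 0 of the 26, against 3.07% and 4.14%. The TEAD core GGAATG was in 4 of the 18 and 1 of the 26, against 12.7% and 14.4%. Of the higher genes with an NF-kB or TEAD match, Cxcl2, Cgref1 and Nppb met the level filter only in CKO 4OHT. Over all genes past 2-fold with a window, 82 higher and 133 lower, the shares were 2.44% and 5.26% for the NF-kB site, 20.7% and 15.0% for the TEAD core, 13.4% and 14.3% for the AP-1 site and 4.88% and 2.26% for the Blimp-1 core. For the NF-kB site the order of higher and lower genes is thus the opposite of that among the 30 highest and lowest. These are letters in the sequence and describe no binding.

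The first question was how far the cultures with and without CreER differed under the drug, set against the same genotypes without it. Under 4OHT, 108 genes were higher in CKO cells (1.45% of those measured) and 167 were lower (2.24%), 275 in all (3.69%). These shares are the background for each count of list members below. Under EtOH, 4 genes were higher (0.0536%) and 0 were lower. The largest differences under 4OHT were 4.47 and -5.54, those under EtOH 2.26 and -0.93. Of the 275 genes, 274 differed by more under 4OHT than under EtOH, Esr1 being the exception. The 275 were chosen by their difference under 4OHT, so this count was largely fixed by the choice. The 2 pairs share no array, and across the 7461 genes their differences had a Pearson correlation of -0.19 and a Spearman correlation of -0.18, over genes that share the same 4 arrays and are not independent.

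The width of the whole distribution differed as well. The median absolute log2 difference was 0.22 under 4OHT and 0.13 under EtOH, and the SD over genes was 0.47 and 0.21. At 4-fold there were 17 higher and 27 lower genes under 4OHT, and at 8-fold 7 and 8. At 1.5-fold the counts were 496 higher and 451 lower genes, so the lower genes outnumbered the higher ones at 2-fold and above but not there. Bright and dim genes both contributed: 4.35% of 2481 genes with a mean level under 50 were past 2-fold, 3.69% of 3442 between 50 and 200, and 2.60% of 1538 at 200 and over.

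**Figure D1:**
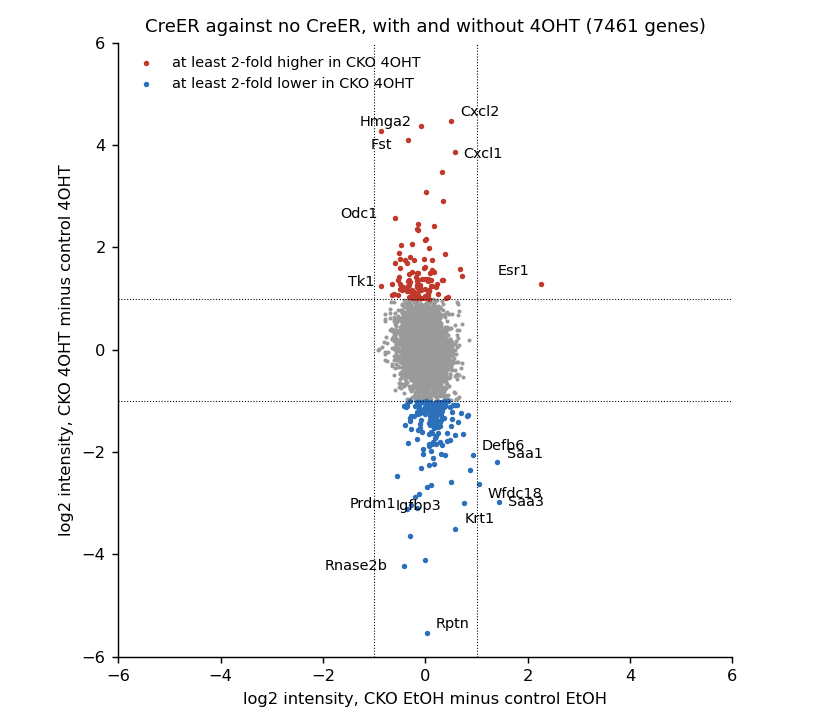
Log2 difference between CKO and control cells under EtOH (x axis) and under 4OHT (y axis) for 7461 measured genes, 1 array a side, with 2-fold marked by dotted lines. The cloud is tall and narrow: 275 genes lie past 2-fold under 4OHT, and 4 under EtOH.

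The 8 highest and 8 lowest genes under EtOH describe how those 2 cultures differed without the drug. Animal and genotype cannot be told apart there either. The highest were Esr1 (2.26), the acute phase genes Saa3 (1.44) and Saa1 (1.41), the WAP domain gene Wfdc18 (1.05), the beta-defensin Defb6 (0.93), the protease inhibitor Wfdc12 (0.87), Stfa3 (0.86), a stefin, and Denn2b (0.82). Of these, Saa3, Saa1, Wfdc18, Defb6, Wfdc12 and Denn2b lay on the opposite side under 4OHT, from -1.28 for Denn2b to -2.97 for Saa3. The lowest under EtOH were Foxo3 (-0.93), Wtap (-0.90), Fst (-0.87), the thymidine kinase gene Tk1 (-0.87), Zscan21 (-0.84), the checkpoint kinase gene Chek1 (-0.81), Klhdc2 (-0.79) and Itgb6 (-0.79). None of these 16 values comes with an error.

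The next question was which side of the comparison stood away from the EtOH cultures. Each difference is the sum of 2 parts, CKO 4OHT minus the mean of both EtOH arrays and that mean minus control 4OHT. Among the 108 higher genes the part on the CKO 4OHT side was the larger in 98, with a median of 1.17 against 0.21 for the control 4OHT side. Among the 167 lower genes it was the larger in 130, with medians of -1.07 and -0.28. The part on the control 4OHT side reached 2-fold in 2 of the higher genes and in 30 of the lower ones. These include the 0 higher and 16 lower genes in which both parts did. Both EtOH arrays lay between the 4OHT arrays for 61 higher and 109 lower genes.

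Single genes show both extremes. Where 4 levels follow in the form of a pair against a pair, the first pair is control 4OHT and CKO 4OHT and the second control EtOH and CKO EtOH, and a lone pair is the first. Defb6 was at 152 in control 4OHT and 36.5 in CKO 4OHT, with 25.4 and 48.4 in control EtOH and CKO EtOH, so its difference of -2.06 lay wholly on the control side. The desmosomal cadherin Dsc1 had the same pattern, 66.8 and 25.2 against 18.5 and 28.6. Chdh, choline dehydrogenase, was the reverse: it was at 103 in control 4OHT and 16.5 in CKO 4OHT against 124 and 134 in the EtOH arrays, and only the CKO 4OHT culture stood apart. Among the higher genes, Hells, a chromatin remodeller of dividing cells, was at 26.6 in CKO 4OHT and 29.1 and 25.1 in the EtOH arrays but at 12.4 in control 4OHT. Its difference of 1.11 came from the control culture. Cst6, an inhibitor of epidermal cysteine proteases, was above the EtOH arrays in both drug-treated cultures, 92.8 in control 4OHT and 312 in CKO 4OHT against 35.9 and 39.5.

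**Figure D2:**
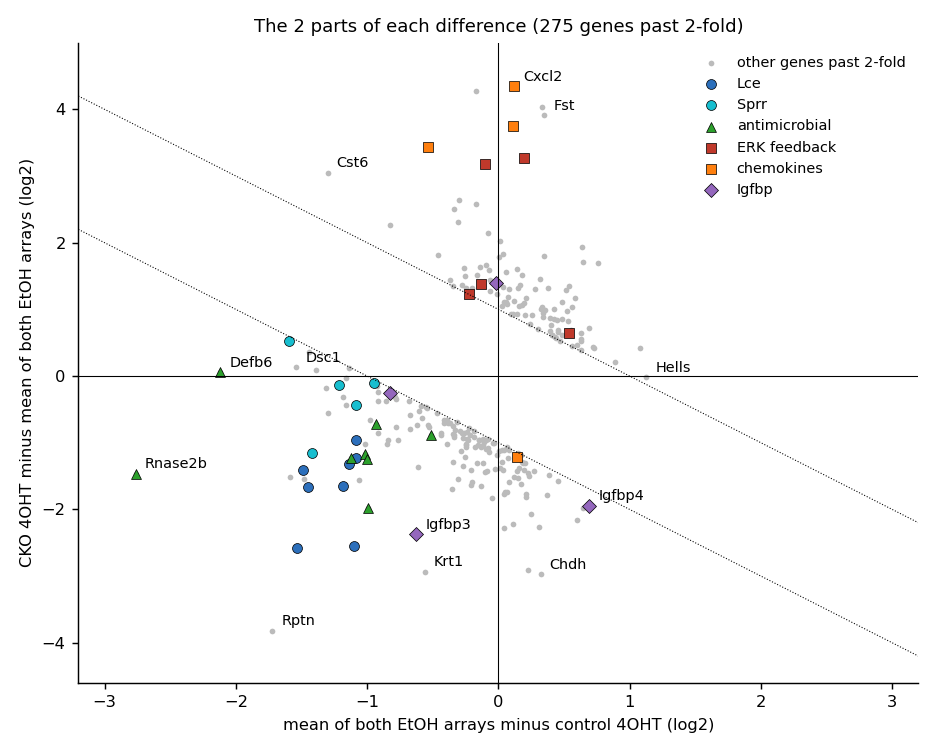
The 275 genes past 2-fold, split into the part on the control 4OHT side (x axis) and the part on the CKO 4OHT side (y axis), both in log2 and with the same EtOH mean, so that the 2 add up to the difference; dotted lines mark a sum of 1 and -1. Chemokine and ERK feedback genes sit close to the vertical axis, and Lce, Sprr and antimicrobial genes to the left of it.

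Several cornified envelope genes were among the 30 lowest, although they were a minority of the 167 lower genes. Rptn, which encodes repetin, was at 178 in control 4OHT and 3.82 in CKO 4OHT, with 53.4 and 54.5 in control EtOH and CKO EtOH. The CKO 4OHT value is under the 25th percentile of that array, 7.11, so the 46.6-fold difference is imprecise. Hrnr, hornerin, was at 89.6 and 10.5 against 31.4 and 28.2. Loricrin (Lor), the main envelope protein of mouse epidermis, was at 151 and 104 against 110 in both EtOH cultures, less than 2-fold apart.

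Of 9 measured Lce genes, the late cornified envelope genes, 8 were lower and 0 higher, against 2.24% of all measured genes lower, with a list median of -2.83 against 0.01 for all genes. Lce1d was at 168 in control 4OHT and 9.74 in CKO 4OHT, and at 58.2 in both EtOH arrays. Lce1h, the brightest of the 8, was at 506 and 102 against 246 and 232. In all 8 genes control 4OHT was the highest and CKO 4OHT the lowest of the 4 arrays. The median over the list was -1.40 on the CKO side and -1.14 on the control side. Of 8 measured Sprr genes 5 were lower and 0 higher, with a median of -1.06, but here the CKO part had a median of 0.21 and the control part one of -1.01. Sprr2i, for example, was at 644 in control 4OHT and 307 in CKO 4OHT against 199 and 228 in the EtOH arrays. Probe sets of both families can read near-identical copies, so a single member is less certain than its family.

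These families are neighbours in the epidermal differentiation complex. From S100a1 to S100a11 in RefSeq order the genome has 69 protein-coding genes, of which the array named 39 genes of any kind and 29 were measured. Of the 29, 16 were lower and 0 were higher, against 2.24% and 1.45% of all measured genes. The median was -1.07 under 4OHT and 0.03 under EtOH. Over the 29 genes the control part had a median of -1.09 and the CKO part one of -0.14. The 9 measured neighbours Lce1a1, Lce1b, Lce1a2, Lce1d, Lce1f, Lce1h, Lce1i, 2310050C09Rik and Lce3a were lower without a break, the longest run of measured neighbours past 2-fold. The 7 measured S100 genes of the complex were not past 2-fold and lay on both sides of 0: S100a14 differed by 0.67, S100a16 by 0.35 and S100a6 by 0.27, and S100a13 by -0.30, S100a1 by -0.62, S100a8 by -0.80 and S100a9 by -0.98. Crct1, inside the complex, differed by 0.42, and Sprr1a and Sprr1b by 0.10 and 0.06. The other runs of at least 3 neighbours were Sprr2i, Sprr2j-ps and Sprr2k, all lower, and Cxcl5, Cxcl1 and Cxcl2, all higher.

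**Figure D3:**
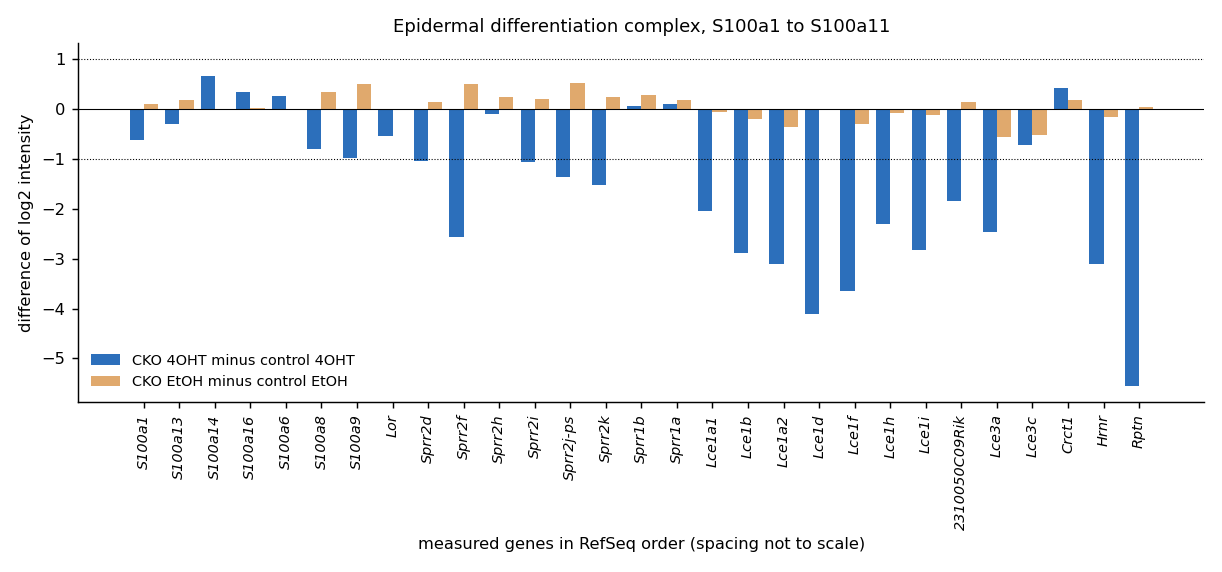
Log2 difference between CKO and control cells under 4OHT (blue) and EtOH (orange) for the 29 measured genes of the epidermal differentiation complex in gene order, 1 array a side; dotted lines mark 2-fold. The blue bars reach -4.11 at Lce1d and -5.54 at Rptn, while the orange bars stay between -0.55 and 0.53.

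Other parts of the differentiated cell differed less. Krt1, the first suprabasal keratin, was at 246 in control 4OHT and 21.8 in CKO 4OHT against 136 and 205. It was the 1 gene past 2-fold among 5 measured basal and suprabasal keratins, while Krt14 differed by -0.05 and Krt5 by -0.07. Of 14 envelope crosslinking and scaffold genes, Cst6 was higher and Tgm3, a transglutaminase, lower (39.4 and 19.5). Of 9 desmosome genes Dsc1 was lower and all 9 were below 0 (median -0.34). Their control part had a median of -0.37 and their CKO part one of -0.02. None of 10 measured tight and gap junction genes, 14 barrier lipid genes or 8 S100 genes was past 2-fold. S100a9, at 4308 and 2187 against 1838 and 2588, came closest at -0.98. Of 9 measured keratins of wounds and simple epithelia, Krt18, a keratin of simple epithelia, was higher (10.9 and 30.2). It met the level filter only in CKO 4OHT, where it was high. Over the 9, 4 were above 0 and 5 below, the lowest at -0.83.

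Several secreted defence proteins were lower. Of 12 measured antimicrobial genes 8 were lower and 0 higher, against 2.24% and 1.45% of all measured genes. The median was -1.85, and -0.16 when the 23 on the array were taken without the level filter. Rnase2b and Saa1 met that filter only in control 4OHT, where they were high. Rnase2b, a secreted ribonuclease, was at 114 in control 4OHT and 6.09 in CKO 4OHT against 19.4 and 14.6 in the EtOH arrays. The control part of that difference was -2.76 and the CKO part -1.46, but the CKO 4OHT level is under the 25th percentile of its array, so the CKO part is imprecise. Lpo, lactoperoxidase, was at 116 and 24.4 against 56.4 and 59.3, and Defb1 at 549 and 208 against 365 and 404. The neutrophil gelatinase-associated lipocalin gene Lcn2 was at 875 and 280 against 355 and 594. Of the 12, 9 were below 0 and 3 above. Defb4 was the highest at 0.90, and Defb3, at -0.10, was below 0 but not past 2-fold.

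Of 8 measured clade B serpins, intracellular protease inhibitors, 3 were lower and 0 higher, against 2.24% and 1.45% of all measured genes. Serpinb1a was at 134 and 32.3 against 91.9 and 120, on the CKO side for the most part (-1.70 of -2.05). Serpinb11 was at 107 and 50.4 against 31.7 and 48.5, on the control side. Serpinb7 was at 23.4 and 6.71 and met the level filter only in control 4OHT, where it was high. Of 12 cathepsins and cystatins, Ctsc, an activator of serine proteases, was lower (248 and 96.1), and Cst6 was the higher one. Among 11 kallikreins and inhibitors Klk6 was higher, at 147 and 400 against 64.5 and 106.

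On the higher side chemokines for neutrophils led. Cxcl1 was at 40.8 in control 4OHT and 591 in CKO 4OHT against 36.2 and 53.7 in the EtOH arrays, and Cxcl2 at 9.94 and 220.3 against 9.06 and 12.9. The CKO 4OHT culture alone stood apart for both. Of 10 measured chemokines, Cxcl1, Cxcl2 and Cxcl5 were higher, and Cxcl14, a chemokine of resting epithelium, was lower (194 and 92.4 against 187 and 245). The median over all 10 was 0.12, but it was -0.14 without the level filter and 1.66 with the filter at the 75th percentile. Cxcl2 and Cxcl5 met the filter only in CKO 4OHT, where they were high. Of 8 cytokines of the IL-10, IL-6 and colony-stimulating type, Il24, Lif and Tslp were higher, against 1.45% of all measured genes. The list median was 0.56, and 0.03 over the 20 on the array without the level filter. Il24 was at 53.8 and 920.4 against 53.9 and 42.3.

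The IL-1 and IL-36 family, alarm cytokines and their antagonists, had more lower than higher members. Of 14 measured genes 4 were lower (Il33, Il18, Il1f5 and Il1rn) and Il1a was higher, against 2.24% and 1.45% of all measured genes. The median was -0.59, and Il1a met the level filter only in CKO 4OHT. Il33, an alarmin, was at 393 and 118 against 216 and 246, and Il1rn, the IL-1 receptor antagonist, at 100.1 and 41.0 against 40.0 and 70.0. For the list as a whole the control part was the larger (-0.66 against 0.05).

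Genes that answer or dampen the ERK kinases had the highest median of the lists with more than 3 measured members at this level filter. With the filter at the 75th percentile the ERK list was at 0.84, the cytokine list at 2.24 and the chemokines at 1.66. Of 16 measured, 5 were higher (1.45% of all measured genes were) and 0 lower, 14 were above 0, and the median was 0.84. Dusp6, a phosphatase that switches ERK off, was at 9.75 in control 4OHT and 108 in CKO 4OHT against 10.03 and 12.5. It met the level filter only in CKO 4OHT, where it was high. Phlda1 was at 51.3 and 432 against 47.5 and 48.2. The remaining 3 were Etv4 (1.25), an ETS transcription factor, Spred1 (1.19) and Spry1 (1.01), inhibitors of the pathway. Just under 2-fold were Ier3 (0.96), Phlda2 (0.86), Dusp7 (0.85) and Spred2 (0.84), while Dusp14 (-0.71) and Dusp8 (-0.32) were below 0.

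The ligands and the immediate early genes around that pathway were uneven. Of 9 measured EGF family genes Hbegf was higher, at 52.6 and 233 against 67.1 and 66.6, and the list median of 0.56 was -0.01 without the level filter. Of 11 AP-1 factors Fos (32.3 and 172 against 27.1 and 30.4) and Fosl1 (17.3 and 59.4) were higher around a median of 0.04. Egr1, an immediate early transcription factor, was lower (80.5 and 40.0) and was the 1 gene past 2-fold of 18 immediate early genes. Of 16 measured genes of wound activation 5 were higher and 0 lower, against 1.45% and 2.24% of all measured genes. The 5 were Procr, Hbegf, Epha2, Cd44 and Has3. Has3 and, among the AP-1 factors, Fosl1 met the level filter only in CKO 4OHT. Procr, the endothelial protein C receptor, was at 36.4 and 199 against 64.7 and 58.7, and Cd44, a hyaluronan receptor, at 544 and 1314 against 758 and 702.

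**Figure D4:**
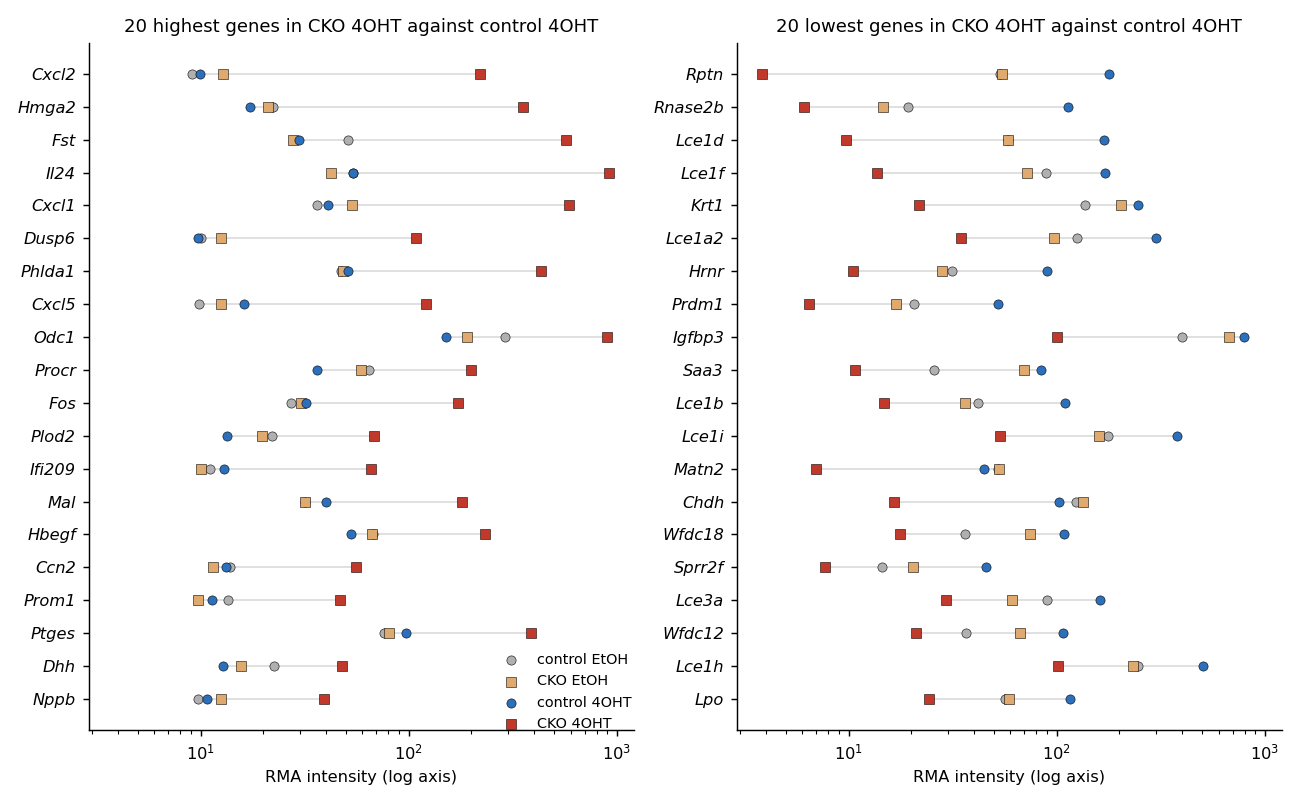
RMA intensity on a log axis of the 20 highest and the 20 lowest genes on each of the 4 arrays, 1 point an array. In the left panel CKO 4OHT is the highest point in all 20 rows, and in 18 rows of the right panel both EtOH points fall between the 2 arrays given 4OHT.

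Several single genes of the 30 highest stood alone in their lists or outside any list. Hmga2, a chromatin protein of embryonic tissue, was at 17.2 and 356 against 22.3 and 21.1, and Igf2, the other measured gene of its list, differed by 0.26. Fst, the activin antagonist, was at 29.6 and 569 against 51.0 and 27.9, while Inhba, the activin subunit, was lower (138 and 67.7). Odc1, the first enzyme of polyamine synthesis, was at 151 and 897 against 290 and 191, the 1 gene past 2-fold of 9 in its pathway. Ptges, which makes prostaglandin E2, was at 97.4 and 388. Plod2, a collagen lysyl hydroxylase, was at 13.3 and 68.5, and Tfrc, the transferrin receptor, at 69.7 and 226. Pdpn, podoplanin, was at 52.2 and 183, and Ccn2, a matricellular target of YAP and TEAD, at 13.3 and 55.7, the 1 gene past 2-fold of 13 in that list. The others of the 30 were Mal, Ifi209, Prom1, Dhh, Nppb, Cgref1, Tm4sf1, Psca, Akap12 and Pigf, from 1.60 for Pigf to 2.35 for Ifi209.

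Growth and division genes differed by small amounts in many members at once. Of 38 measured ribosome biogenesis genes 37 were above 0, against 3883 of 7461 over all genes, with a median of 0.53. Only Nop56, a core protein of box C/D ribonucleoproteins, was past 2-fold (223 and 595 against 382 and 338). Myc, a driver of such genes, was at 134 and 312 against 140 and 161, the 1 gene past 2-fold of 10 in the Myc, Max and Mxd network. Under EtOH the ribosome list had a median of -0.09.

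DNA replication and mitosis genes lay on opposite sides of 0. Of 37 replication and nucleotide synthesis genes 34 were above 0, with a median of 0.46, and Tk1 (37.4 and 88.9 against 74.2 and 40.7) and Hells were past 2-fold. Of 35 mitosis and spindle genes 29 were below 0 and 0 were past 2-fold, with a median of -0.31. Of the 2 brightest, Ube2c was at 665 and 627 against 745 and 627, and Cdc20 at 587 and 431 against 593 and 546. Mki67, the proliferation marker, was further below 0, at 230 and 126 against 281 and 254. So was Ccnb2, a mitotic cyclin, at 333 and 190 against 350.3 and 330. The replication list had its larger part on the control side (0.39, with -0.01 on the CKO side) and the mitosis list on the CKO side (-0.45, with 0.18 on the control side). Under EtOH the medians were -0.34 and -0.17. Of 18 G1 genes Ccnd1, cyclin D1, was higher (154 and 521 against 249.98 and 215) and Cdkn2d, an inhibitor of CDK4 and CDK6, lower (45.7 and 15.8 against 44.3 and 40.9).

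**Figure D5:**
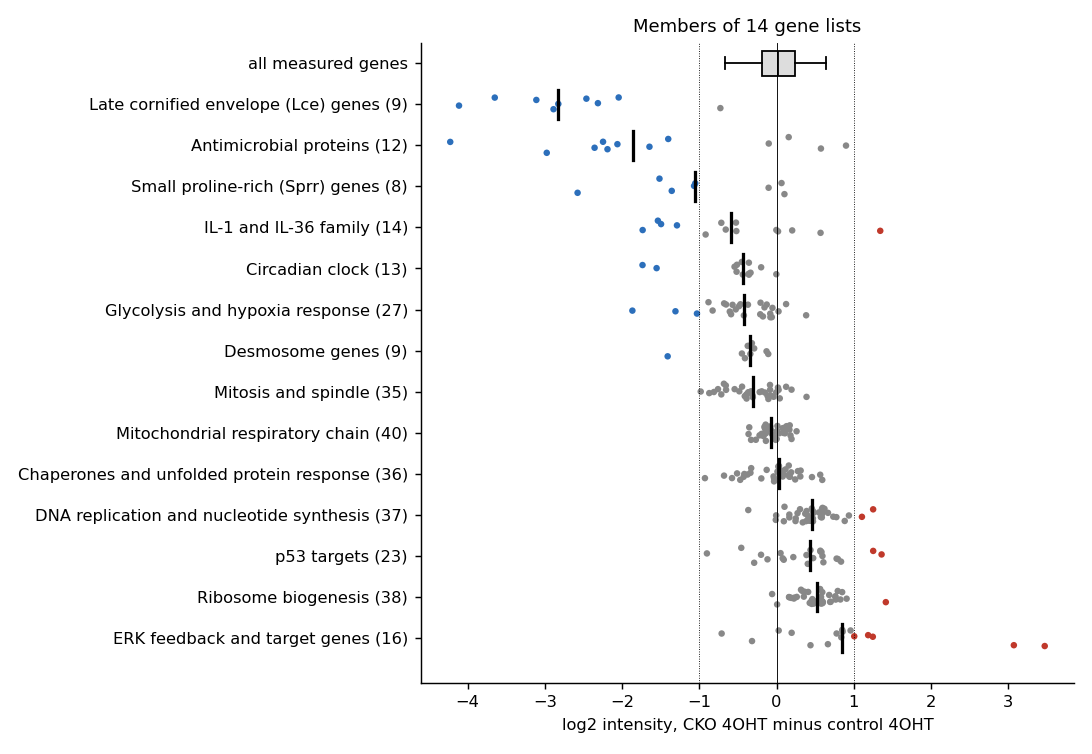
Log2 difference under 4OHT of the measured members of 14 gene lists, 1 point a gene (red at least 2-fold higher, blue at least 2-fold lower), with the list median as a bar; the box shows all 7461 genes (quartiles, and the 5th to 95th percentile as whiskers). The medians run from -2.83 for Lce genes to 0.84 for ERK feedback genes, and most ribosome and replication genes sit right of 0 without reaching 2-fold.

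Of 23 p53 targets 2 were higher, Mdm2 (127 and 303), which turns p53 over, and Gadd45a (39.6 and 102), and 18 were above 0 (median 0.44). Of all measured genes 1.45% were higher, 2.24% were lower and 3883 of 7461 were above 0. All 13 measured clock genes were at or below 0, with a median of -0.44. Nfil3, a repressor of the clock output, was at 67.5 and 20.3 against 73.1 and 65.7, and Dbp, the activator at the same sites, at 25.6 and 8.73 against 32.7 and 26.9. Of 27 glycolysis and hypoxia genes 3 were lower (Aldoc, Bnip3 and Pfkp) and 24 were below 0 (median -0.42). None of 36 chaperone and unfolded protein genes or 40 respiratory chain genes was past 2-fold, with medians of 0.04 and -0.07. None of 11 Notch pathway genes was either.

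A minority of detoxifying enzymes was lower. Of 36 measured glutathione, aldehyde and oxidative stress genes 6 were lower and 1 higher, against 2.24% and 1.45% of all measured genes. The median was -0.18. Cyp1b1, a cytochrome that metabolises aromatic hydrocarbons and estrogens, was at 48.8 and 12.4 against 30.7 and 33.1, and Mgst1, a membrane glutathione transferase, at 506 and 197 against 466 and 579. Chdh, Gsta3, Cbr2 and Gstm1 were the other lower genes, and Gsta4 (256 and 539) the higher one. Dhcr7, the last enzyme of cholesterol synthesis, was higher (100.5 and 225) and Acss2, which makes acetyl-CoA from acetate, lower (79.3 and 34.1), among 29 lipid synthesis genes with a median of -0.04.

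Matrix and adhesion genes split as well. Of 18 matrix genes 5 were lower, Matn2, Mmp2, Fbln1, Col5a2 and Adamts1, and Mmp3 was higher. Of all measured genes 2.24% were lower and 1.45% higher, and Mmp3 met the level filter only in CKO 4OHT. Matn2, matrilin-2, was at 45.0 and 6.97 against 52.0 and 53.03. Of 18 hemidesmosome, integrin and basement membrane genes Itga3 (155 and 399) and Cd44 were higher, and Col4a1 (51.6 and 14.6) lower. The other measured Col4a1 probe set differed by -0.30 only (37.8 and 30.7). Tgfbi, a secreted matrix protein induced by TGF-beta, was among the brightest lower genes, at 957 and 352 against 1118 and 1043. Of 45 actin and focal adhesion genes 3 were lower, Vav3, Acta2 and Csrp1, with a median of -0.05. Vav3 was at 180.1 and 41.7 against 184 and 205.

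The binding proteins of insulin-like growth factors went both ways. Igfbp3 was at 797 in control 4OHT and 99.9 in CKO 4OHT against 399 and 672 in the EtOH arrays, Igfbp2 at 1111 and 524 against 521 and 754, and Igfbp4 at 44.7 and 18.7 against 72.2 and 72.1. Igfbp7 was the higher member, at 233 and 606 against 235 and 225, but its 2 other measured probe sets differed by -0.07 and 0.88. The 5 other measured Igfbp4 probe sets differed by -0.38 to -0.81, none past 2-fold. Each of the 4 had a pattern of its own: Igfbp2 stood apart in control 4OHT, Igfbp4 and Igfbp7 in CKO 4OHT, and Igfbp3 was lowest in CKO 4OHT and highest in control 4OHT.

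Signalling receptors and immune genes had few members past 2-fold. Fzd6, a Wnt receptor, was at 491 and 228 and Porcn, which acylates Wnt proteins, at 257 and 93.5, the 2 lower of 13 Wnt pathway genes. Epha2 was higher (49.8 and 129) of 11 Eph and ephrin genes. Lgals9, galectin-9, was lower (181 and 38.4) of 7 galectins, and Fxyd6 lower (60.8 and 16.4) of 12 ion pump genes. Tnfaip2 was higher (44.4 and 131) of 18 NF-kB genes, whose median was -0.14. Of 17 interferon and antigen presentation genes Psmb8, Irf1 and Ifih1 were lower and Ifi209 higher, against 2.24% and 1.45% of all measured genes. Ifi209 met the level filter only in CKO 4OHT, where it was high. Of 27 epidermal transcription factors Prdm1 and Gata3 (78.8 and 39.1) were lower and 0 were higher. Of 15 measured partners and lymphoid targets of Blimp-1, Fosl1 and Myc were higher and Prdm1 was lower.

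Markers of other cells were checked beside these groups. The leukocyte list summed to 357 in control 4OHT and 249 in CKO 4OHT (336 and 330 in the EtOH arrays), with the lysosomal gene Cd68 at 198 and 98.2. The sebocyte list summed to 3958 and 3086 (3512 and 3857), with Mgst1 lower. The melanocyte list summed to 255 and 278, and the hair follicle list to 333 and 304, where Gata3 was the 1 gene past 2-fold. The part of these markers in the differences above was not tested. In bulk cultures, fewer cells of a type and less RNA per cell cannot be told apart.

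How well a difference is read depends on the level and the probe set. Of the 167 lower genes 7 had a CKO 4OHT value under the 25th percentile of the array: Rptn, Rnase2b, Prdm1, Matn2, Saa1, Fgf13 and Serpinb7. Their folds are imprecise. The level filter was met by the higher of the 4OHT arrays alone for 22 of the 108 higher and 9 of the 167 lower genes, which could enter the counts only by differing. Among these were Dusp6, Fosl1, Ccn2, Krt18, Il1a, Has3 and Mmp3 on the higher side and Serpinb7 on the lower. Cxcl2, Cxcl5, Cgref1, Ifi209, Prom1, Nppb and Akap12 were others on the higher side, and Rnase2b and Saa1 on the lower. Of the named genes past 2-fold, 34 had another measured probe set, 47 sets in all, of which 46 had the same sign and 34 were also past 2-fold. The exception in sign was the Igfbp7 set given above. The sets that did not reach 2-fold read Igfbp4, Igfbp7, Col4a1, Cxcl14, Il1rn, Il1f5, Fzd6 and Gstm1.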

How the data were processed

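RNA of 4 cultures was labelled with a 3′ in vitro transcription kit and read on Affymetrix Mouse Expression Array 430A, per the labels' protocols. The deposited table gives 1 linear intensity per probe set and array (22626 probe sets), made by the authors with RMA, per the submitters' processing notes. RMA makes the arrays' distributions alike, so a shift common to most genes would be lost. The number of arrays, 1 a group, limits the precision.

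Log2 was taken without a pseudocount (Python 3.11.15, pandas 2.3.3, NumPy 2.4.6). Platform annotation named 1 gene for 20380 probe sets, several for 691 and none for 1555. A gene was read by its probe set of highest mean. The 52 gene lists, 11 marker lists, members, comparison and alternatives were chosen with earlier results of these data known. Counting was checked on simulated data.

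Named genes were Prdm1 and Esr1, the 30 highest and 30 lowest, the 8 highest and 8 lowest of the EtOH pair, those past 2-fold in both pairs, list members past 2-fold, and otherwise the 2 brightest of a list. Others (Lor, Igf2, Crct1, S100a1, S100a6, S100a8, S100a13, S100a14, S100a16, Sprr1a, Sprr1b, Defb3, Defb4, Ier3, Phlda2, Dusp7, Dusp8, Dusp14, Spred2, Mki67, Ccnb2, Ptprc, Xist and 2310050C09Rik) were chosen after their values were seen. Promoters came from RefSeq.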

Additional observations from a re-analysis of the deposited data

Results flagged for a closer look

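The difference between CKO and control cells had opposite signs with and without the drug, past 2-fold in both, for 3 genes. Saa3, an acute phase protein gene, differed by -2.97 under 4OHT and by 1.44 under EtOH, at 84.1 and 10.7 against 25.6 and 69.5. Saa1 differed by -2.19 and 1.41, and its values of 5.20 in CKO 4OHT and 7.18 in control EtOH are close to the floor of the arrays. Wfdc18, a gene of the WAP domain family, differed by -2.62 and 1.05, at 109 and 17.6 against 36.2 and 74.8. In all 3 genes CKO EtOH and control 4OHT were the higher arrays. With 1 array a group, the difference between the pairs was not tested. The Saa genes belong to one family, and whether their probe sets read each other was not tested.

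Probe sets that name no single gene were left out of the comparison, and they held differences too. Of 927 such probe sets at or above the level filter, 12 were higher and 16 lower in CKO 4OHT than in control 4OHT, against 0 and 0 between the EtOH arrays. One of them, which the annotation does not list, was at 368 in control 4OHT and 35.6 in CKO 4OHT, with 368 and 202 in control EtOH and CKO EtOH.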

How the results depend on the processing

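The counts follow the level filter and the threshold. With the level filter at the 75th percentile, 64 genes were higher and 107 lower under 4OHT and 2 higher under EtOH, and the part on the CKO 4OHT side was the larger in 61 and 81. With 16 intensity units added before log2 the counts were 59 and 88, 2 under EtOH, and 58 and 59 for that part. At 1.5-fold they were 496 and 451, with 44 higher and 56 lower under EtOH, and 367 and 334. Without probe sets that can read several transcripts, 2 genes were higher under EtOH. Quantile normalization, centring on the median, no level filter, averaged probe sets and the set without shared probes kept the 4OHT counts within 1.5 times. Of 131 named genes past 2-fold, each kept its sign under all 7 settings that gave it a value, and 96 of 131 stayed past 2-fold with 16 units added. The median of the Hmga and embryonic RNA regulator list, 2 measured genes, was 2.31 and became -0.027 without the level filter. Of the 52 list medians, 12 moved by more than 0.21, the SD over genes between the EtOH arrays, without that filter, and 0 did under either scaling. Centring and quantile normalization moved the median of all genes from 0.01 to 0.03 and -0.01. No paired analysis was possible because each group has 1 array, and no array could be left out.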
